A study of Mus musculus with 30 samples.

Results

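The T cell receptor complex and its coreceptors were described in E0771 mammary tumors through 10 genes chosen by symbol. These were the signalling chains Cd3d, Cd3e, Cd3g and Cd247, the coreceptors Cd4, Cd8a and Cd8b1, the kinases Lck and Zap70, and the adhesion receptor Cd2. Of the 10, 9 had a probe set, 1 each, and Lck was not analysed here. The fit in which they were tested held 19505 named genes.

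The T cell receptor is a pair of variable chains that read a peptide on an MHC molecule but cannot signal alone. CD3 delta, epsilon and gamma and the zeta chain (Cd247) carry the signal into the cell. CD4 binds MHC class II and marks helper and regulatory T cells, and CD8, made of alpha (Cd8a) and beta (Cd8b1) chains, binds MHC class I and marks most cytotoxic T cells. Both coreceptors bring the kinase LCK to the CD3 and zeta chains, where ZAP-70 then docks and is activated, and CD2 strengthens contact with other cells. Cd247, Zap70 and Cd2 are also used by natural killer cells, and some mouse dendritic cells carry CD8 alpha or CD4. In carcinomas these transcripts are read as a measure of infiltrating T cells.

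Expression was measured in 30 tumors, 6 from each of 5 groups, on 1 array each. E0771 is a mammary carcinoma line from C57BL/6 mice, so every tumor came from the same transplanted cells. All mice were female C57BL/6NCrl, 8 weeks old on arrival, and received an E0771 tumor graft in the 4th mammary fat pad in week 25 after diets were assigned. CON-LFD mice ate a control low-fat diet throughout and had a sham operation. The other 4 groups were first made obese (DIO, diet-induced obesity) by feeding with 60% fat. DIO-HFD mice had a sham operation and kept that diet. DIO-VSG mice had vertical sleeve gastrectomy, an operation that cuts away much of the stomach, followed by the low-fat diet. After a sham operation DIO-CCR mice received a chronic calorie restriction of 30%, and DIO-ICR mice an intermittent one with severe restriction on some days and a mild one on the rest, 30% on average. The comparisons ask whether obesity, and weight loss by each route, went with a different T cell content of the tumor. In a bulk tumor, fewer T cells and less RNA per T cell cannot be told apart.

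Levels are log2 values, in which a difference of 1 is a 2-fold change, and they ran from 1.48 to 18.57 over all probe sets. In 3 tumors the B cell genes Ms4a1 (CD20) and Cr2 (CD21) averaged more than 1 above their median tumors, namely DIO-VSG 1 (by 6.80), DIO-HFD 5 (by 3.14) and DIO-VSG 5 (by 1.89), tumors being named by group and replicate number. These are called B cell-high here, and each comparison is given with all 30 tumors and with the 27 others. The B cell receptor gene Cd79a read 12.68, 8.70 and 6.41 in them against 3.42 to 4.40 elsewhere. Ccl21a, a chemokine of lymph node stroma, read 13.34, 10.75 and 7.89 against 4.53 to 7.26. The thymocyte genes Rag2 and Dntt stayed between 2.53 and 3.96 in every tumor. Among the epithelial markers Krt8 ran from 7.19 to 11.71, while Krt18 and Epcam lay at 3.13 to 5.55 and 3.09 to 6.42 in the 27 tumors and at 8.24 and 8.64 in DIO-VSG 1.

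Tumors of DIO-ICR mice held more RNA of the CD3 and CD8 genes than those of obese mice once the B cell-high tumors were set aside. Cd3e was 5.75-fold and Cd8a 5.84-fold higher in DIO-ICR than in DIO-HFD, and Cd3g, Cd8b1 and Cd3d 2.62-fold to 3.59-fold higher, so that 5 of 9 genes rose against 0.559% of all genes called in that comparison. Cd4, Zap70, Cd2 and Cd247 did not pass. With all 30 tumors 0 of 9 passed by limma (0.461% of all genes were called). At an unadjusted p under 0.05, 6 of 9 were higher, where 10.8% of all genes were past it in either direction.

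The promoters of 4 of the genes that rose (Cd3d, Cd3e, Cd3g and Cd8a) are shown with that of Cd247, which did not, since Cd3d, Cd3e and Cd3g are neighbours on chromosome 9 and all 3 rose. RefSeq promoters on GRCm38.p6 were matched for 7 of the 10 genes. Cd3g and Cd3d lie head to head, and Cd8a and Cd8b1 are neighbours on chromosome 6. The 250 bases before each start are given 5′ to 3′ on the gene's strand, from chr9:44981536-44981785 (Cd3d, plus strand), chr9:45009612-45009861 (Cd3e, minus), chr9:44980432-44980681 (Cd3g, minus), chr6:71373177-71373426 (Cd8a, plus) and chr1:165788431-165788680 (Cd247, plus). Capitals mark GGAA on either strand (GGAA or TTCC), the core that ETS factors bind, a family that includes regulators of lymphocyte genes.
Cd3d: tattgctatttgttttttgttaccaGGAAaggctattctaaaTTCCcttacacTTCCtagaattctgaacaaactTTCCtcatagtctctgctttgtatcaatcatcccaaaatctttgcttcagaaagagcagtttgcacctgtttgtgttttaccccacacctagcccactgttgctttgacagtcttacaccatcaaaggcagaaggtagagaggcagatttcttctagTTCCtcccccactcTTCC
Cd3e: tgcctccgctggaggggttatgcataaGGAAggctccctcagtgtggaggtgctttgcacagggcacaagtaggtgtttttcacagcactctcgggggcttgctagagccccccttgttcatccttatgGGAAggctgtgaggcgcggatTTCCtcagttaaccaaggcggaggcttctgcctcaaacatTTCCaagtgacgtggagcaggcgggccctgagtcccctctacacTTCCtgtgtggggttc
Cd3g: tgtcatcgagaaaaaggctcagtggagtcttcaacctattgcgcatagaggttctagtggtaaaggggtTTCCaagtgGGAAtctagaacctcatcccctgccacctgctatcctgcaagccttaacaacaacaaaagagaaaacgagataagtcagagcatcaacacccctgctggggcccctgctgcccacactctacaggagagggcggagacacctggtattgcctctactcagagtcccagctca
Cd8a: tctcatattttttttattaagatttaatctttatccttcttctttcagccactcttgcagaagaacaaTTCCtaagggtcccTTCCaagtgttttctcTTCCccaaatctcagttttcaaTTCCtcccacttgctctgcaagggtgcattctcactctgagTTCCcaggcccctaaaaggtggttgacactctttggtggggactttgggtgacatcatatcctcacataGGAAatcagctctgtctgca
Cd247: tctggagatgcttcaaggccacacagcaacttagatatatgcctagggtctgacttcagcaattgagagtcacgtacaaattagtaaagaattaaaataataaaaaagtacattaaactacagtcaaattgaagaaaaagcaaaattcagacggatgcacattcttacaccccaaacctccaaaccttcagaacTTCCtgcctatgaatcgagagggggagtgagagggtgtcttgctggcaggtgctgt
The core occurs 6 times before Cd3d and Cd8a, 5 times before Cd3e, 2 times before Cd3g and 1 time before Cd247. Before the 3 starts of Zap70, which did not pass either and is not shown, it occurs 8, 7 and 0 times. The counts thus do not set the genes that rose apart from those that did not. It is a common word, present in 93.4% of 32851 promoter windows of this length with a mean of 2.91 matches, and the counts describe these letters only.

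Among the signalling chains Cd3e varied most. CD3 epsilon pairs with both CD3 delta and CD3 gamma and is present in every receptor complex. In DIO-HFD its level had a lowest value of 5.64, a median of 6.83 and a highest of 9.52, the last in the B cell-high DIO-HFD 5, and the other 5 tumors reached 7.26 at most. In DIO-ICR it ran from 8.09 over a median of 9.21 to 9.95. DIO-ICR and DIO-HFD thus overlapped in all 30 tumors through DIO-HFD 5 alone and were separate without it. CON-LFD tumors lay at 6.99, 7.92 and 8.67 (lowest, median and highest) and DIO-CCR tumors at 7.0, 8.15 and 9.27. DIO-VSG tumors ran from 7.46 over 7.76 to 12.27, and within 7.46 to 7.85 in the 4 tumors not high in B cell genes. The Cd3e difference of DIO-ICR from DIO-HFD was 2.03 ± 0.64 (SE) with all tumors (adjusted p = 0.187) and 2.52 ± 0.39 without the B cell-high ones (limma, adjusted p = 0.00345).

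Cd3g and Cd3d, the chains that pair with CD3 epsilon, also had DIO-HFD as the lowest and DIO-ICR as the highest group by mean in the 27 tumors. Cd3g read 5.85, 6.63 and 7.83 in DIO-HFD and 7.64, 8.12 and 8.90 in DIO-ICR, and the DIO-HFD maximum was again DIO-HFD 5. CON-LFD (6.28, 7.41 and 8.24) and DIO-CCR (6.17, 7.56 and 8.27) overlapped both. Its difference of DIO-ICR from DIO-HFD was 1.85 ± 0.38 in the 27 tumors (adjusted p = 0.0238). The DIO-ICR tumors were the most alike in Cd3d, at 6.29, 6.76 and 6.95 (SD 0.25), whereas DIO-HFD tumors spread over 3.96, 5.78 and 6.48 (SD 0.96). CON-LFD tumors lay at 4.87, 5.27 and 6.29, so their highest tumor equalled the lowest of DIO-ICR. Cd3d rose by 1.39 ± 0.33 over DIO-HFD (adjusted p = 0.0492) and by 1.20 ± 0.31 over CON-LFD (adjusted p = 0.0376) in the 27 tumors.

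Cd247, the zeta chain, did not follow the CD3 genes. It read 6.04, 6.30 and 7.45 in DIO-HFD, 5.63, 6.34 and 6.88 in DIO-ICR and 6.00, 6.63 and 7.19 in CON-LFD. The groups overlapped throughout, and in the 27 tumors the DIO-ICR difference from DIO-HFD was 0.09, with a 95% interval from -0.35 to 0.53 that leaves out the changes of Cd3d, Cd3e and Cd3g. Its within-group SD of 0.37 was the smallest of the 9 genes in the 27 tumors.

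**Figure D1:**
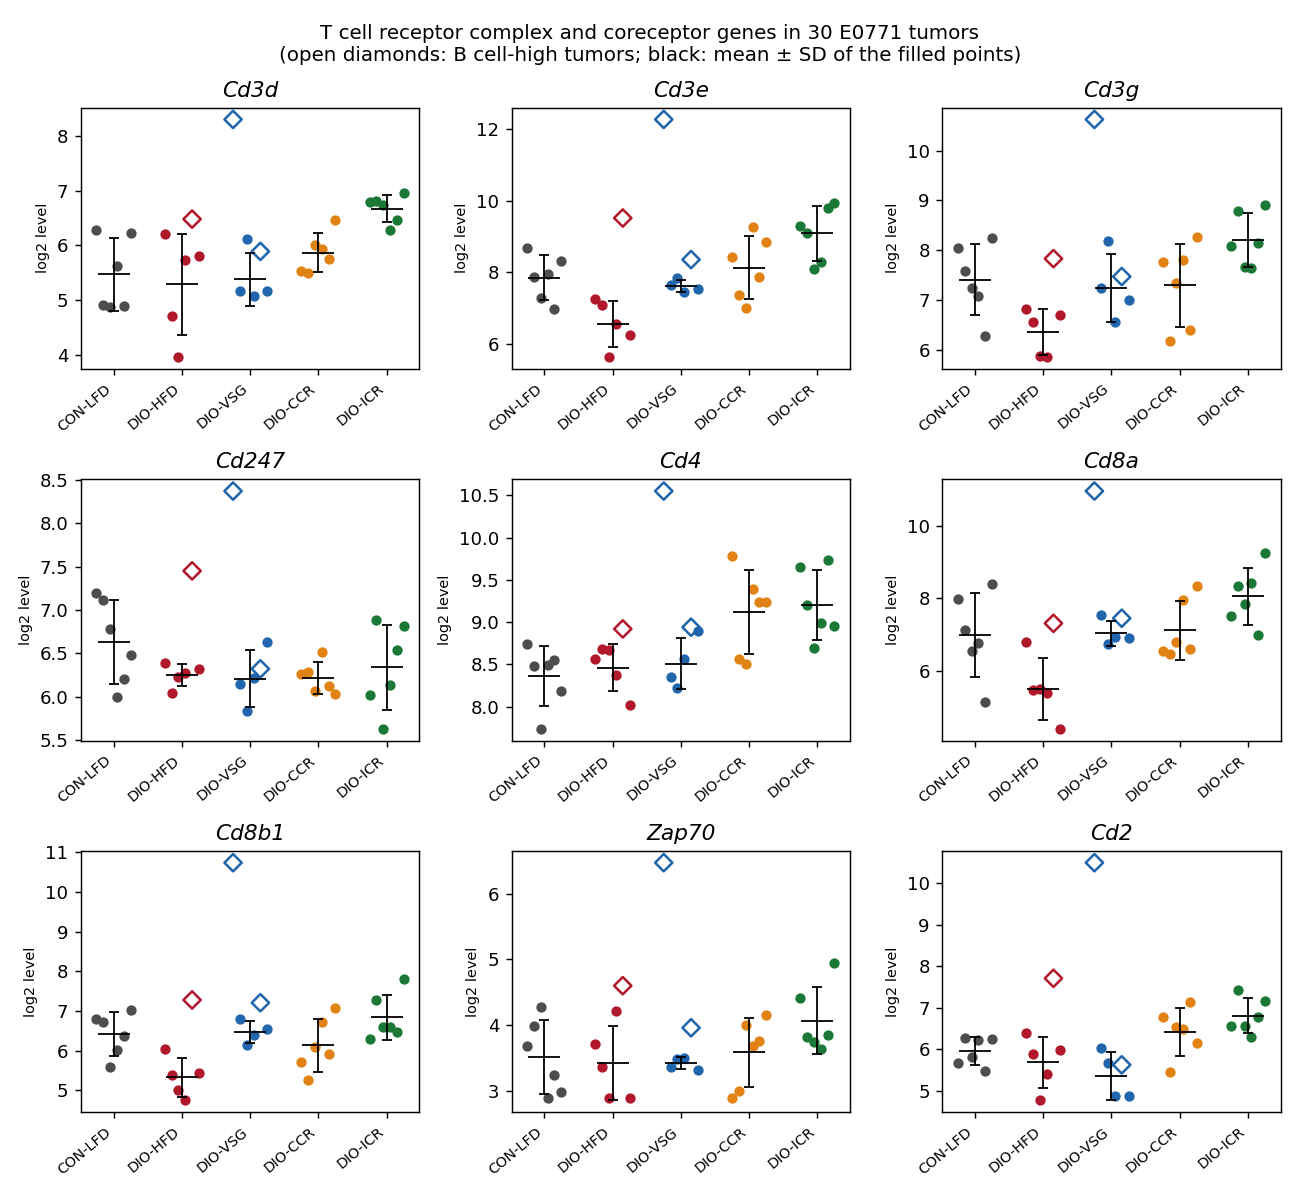
Log2 level of each of the 9 measured genes (vertical axes) in the 6 tumors of each group (horizontal axes). Open diamonds are the 3 B cell-high tumors, and black bars give the mean and SD of the other tumors. DIO-VSG 1 is the highest of all 30 tumors in each of the 9 panels. Without DIO-HFD 5 the DIO-ICR tumors lie above the DIO-HFD tumors for Cd3e, Cd3g, Cd8a and Cd8b1, and by a narrow gap for Cd3d and Cd4.

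By group median DIO-HFD was the lowest group for both CD8 chains, but not for Cd4. Cd8a read 4.41, 5.49 and 7.31 in DIO-HFD and 7.0, 8.09 and 9.24 in DIO-ICR. CON-LFD tumors were spread from 5.14 over 6.96 to 8.38, and DIO-CCR tumors lay at 6.46, 6.70 and 8.33. Only 1 of the 5 DIO-HFD tumors without high B cell genes, DIO-HFD 1 at 6.79, reached the range of DIO-CCR or DIO-VSG. The DIO-ICR difference was 2.25 ± 0.61 with all tumors, whose adjusted p of 0.0952 was the lowest of the 9 genes, and 2.54 ± 0.48 in the 27 (adjusted p = 0.0142). Cd8b1, whose product marks the alpha-beta form of CD8 on conventional cytotoxic T cells, read 4.75, 5.42 and 7.28 in DIO-HFD and 6.30, 6.60 and 7.80 in DIO-ICR. It was 1.51 ± 0.31 higher in DIO-ICR in the 27 tumors (adjusted p = 0.0238).

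Cd4 was set apart from CD8 by where it was high. DIO-CCR (8.50, 9.24 and 9.78) and DIO-ICR (8.69, 9.10 and 9.73) were the 2 high groups, while DIO-HFD (8.02, 8.62 and 8.92) was no lower than CON-LFD (7.74, 8.49 and 8.74). Against CON-LFD, Cd4 rose by 0.84 ± 0.21 in DIO-ICR (adjusted p = 0.0349, 27 tumors), and in DIO-CCR its difference was 0.75 ± 0.21 (adjusted p = 0.096). Against DIO-HFD its DIO-ICR difference was 0.74 ± 0.22 in the 27 tumors (adjusted p = 0.151). The lowest DIO-ICR tumor lay only just above the highest of the 5 DIO-HFD tumors (8.69 against 8.68), and 0.836% of all genes were separate in that comparison. Within a tumor, Cd8a minus Cd4, set to 0 in the median tumor, averaged -1.32 (SD 0.70, n = 5) in DIO-HFD, -0.38 (SD 0.84, n = 6) in DIO-CCR, 0.15 (SD 0.49, n = 4) in DIO-VSG, 0.26 (SD 1.19, n = 6) in CON-LFD and 0.48 (SD 1.10, n = 6) in DIO-ICR. The order describes these tumors and was not tested.

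Zap70, the kinase that docks on the phosphorylated chains, lay near the bottom of the scale. Its DIO-ICR tumors read 3.64, 3.84 and 4.95 against 2.90, 3.54 and 4.60 in DIO-HFD and 2.90, 3.47 and 4.28 in CON-LFD. The ranges overlapped, and the DIO-ICR difference from DIO-HFD was 0.65 ± 0.29 in the 27 tumors (adjusted p = 0.392). Cd2 read 6.31, 6.68 and 7.44 in DIO-ICR, 5.49, 6.03 and 6.27 in CON-LFD and 4.78, 5.94 and 7.71 in DIO-HFD. Every DIO-ICR tumor was thus above every CON-LFD tumor for Cd2, but the difference of 0.85 ± 0.28 did not pass (adjusted p = 0.102, 27 tumors), and neither did that from DIO-HFD (1.12 ± 0.29, adjusted p = 0.0735).

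The comparison of normal-weight with obese hosts called no member. It shares its DIO-HFD tumors with those of the 3 weight loss groups. In the 27 tumors 4 genes were higher in CON-LFD than in DIO-HFD at an unadjusted p under 0.05, where 11.6% of all genes were past it. These were Cd8a by 1.49 ± 0.48, Cd3e by 1.28 ± 0.39, Cd8b1 by 1.09 ± 0.31 and Cd3g by 1.05 ± 0.38. Of the 9 genes 0 passed (limma, lowest adjusted p = 0.109), against 0.656% of all genes. With 30 tumors 0 of 9 passed and 0 were past an unadjusted p under 0.05, against 0.995% of genes called and 12.2% past the unadjusted threshold. Cd4 and Cd3d differed by -0.17 ± 0.29 and -0.02 ± 0.43 with 30 tumors and by -0.10 ± 0.22 and 0.18 ± 0.33 in the 27.

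DIO-VSG tumors differed from DIO-HFD tumors by less once DIO-VSG 1, DIO-VSG 5 and DIO-HFD 5 were set aside. With all tumors Cd8a was 1.95 ± 0.61, Cd8b1 1.65 ± 0.54, Cd3e 1.46 ± 0.64 and Cd3g 1.24 ± 0.50 higher. Of the 9 genes 0 passed by limma (lowest adjusted p = 0.214, 0.154% of all genes called). At an unadjusted p under 0.05 there were 4, against 10.4% of all genes. In the 27 tumors the 4 differences became 1.52 ± 0.54, 1.14 ± 0.35, 1.06 ± 0.43 and 0.88 ± 0.42. Again 0 of 9 passed by limma (lowest adjusted p = 0.425, 0.00513% of all genes called). At an unadjusted p under 0.05 there were again 4, against 7.11% of all genes. Cd2 turned from 0.24 to -0.33 and Zap70 from 0.40 to 0.00, so that no higher level of those genes was left in DIO-VSG. Cd3e and Cd8b1 lay above DIO-HFD in every one of the 4 tumors, a separation that 1.1% of all genes showed. Of these 4, DIO-VSG 3 and DIO-VSG 4 also stood apart in skeletal muscle genes, whose 6 genes averaged 2.56 and 6.95 above the median tumor, and 5 of 6 were higher than in DIO-HFD at an unadjusted p under 0.05. DIO-VSG 2 and DIO-VSG 6 had muscle scores of -0.06 and -0.10. Their Cd3e read 7.66 and 7.53 and their Cd8b1 6.80 and 6.55, against at most 7.26 and 6.05 in the 5 DIO-HFD tumors. The part of muscle RNA in the DIO-VSG differences was not tested.

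By mean in the 27 tumors DIO-CCR stood between DIO-HFD and DIO-ICR in each gene but Cd247. CON-LFD and DIO-VSG also stood between them for Cd3e, Cd3g, Cd8a and Cd8b1. Cd8a, Cd3e and Cd3g were 1.61 ± 0.48, 1.57 ± 0.39 and 0.94 ± 0.38 higher than in DIO-HFD in the 27 tumors, and Cd4, Cd8b1 and Cd2 0.66 ± 0.22, 0.81 ± 0.31 and 0.74 ± 0.29. All 6 had an unadjusted p under 0.05, as did 12% of all genes. By adjusted p 0 of 9 passed (limma, lowest adjusted p = 0.0842, for Cd3e, 0.231% of genes called). With 30 tumors 0 of 9 passed, where 0.354% of genes were called. Past an unadjusted p under 0.05 was 1 of 9, near the 12.1% of all genes.

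**Figure D2:**
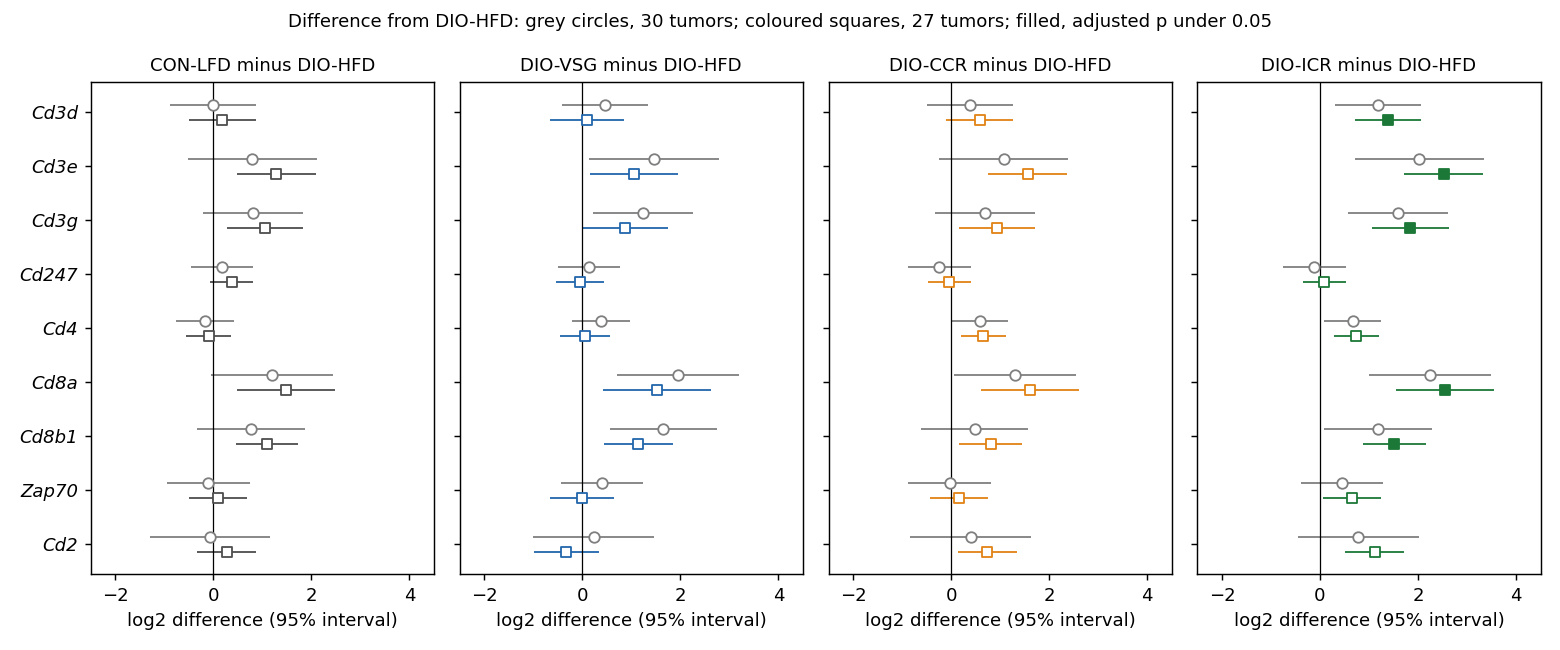
Difference of each group from DIO-HFD on the log2 scale with its 95% interval (horizontal axes) for the 9 genes (vertical axis), with all 30 tumors (grey circles) and without the 3 B cell-high tumors (coloured squares). Filled symbols passed at an adjusted p under 0.05, and these are Cd3d, Cd3e, Cd3g, Cd8a and Cd8b1 in DIO-ICR without the B cell-high tumors.

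Between DIO-ICR and DIO-HFD, 6 of 9 genes (Cd3d, Cd3e, Cd3g, Cd4, Cd8a and Cd8b1) were higher in every DIO-ICR tumor than in every one of the 5 DIO-HFD tumors, a separation seen in 0.836% of all genes. The gap was narrow for Cd4 (8.69 against 8.68) and Cd3d (6.29 against 6.21). With all 30 tumors 0 of 9 were separate, against 0.543% of all genes. The DIO-HFD tumor set aside, DIO-HFD 5, was the highest of its group in each of the 9 genes. The median difference of the 9 genes was 1.39, against -0.02 over all genes. The 5 calls rested on single tumors to differing degrees. Cd3e passed in each of the 11 fits that left out 1 DIO-HFD or DIO-ICR tumor (adjusted p of 0.018 at most). Cd8a lost its call in 2 of them (up to 0.059), Cd3g in 5 (up to 0.0772) and Cd8b1 in 5 (up to 0.0785). Cd3d, just inside the threshold, lost its call in 10 of the 11, all but that without DIO-HFD 1 (up to 0.157). The count fell to 1 of 9 without DIO-HFD 6 or DIO-ICR 6 and to 2 without DIO-HFD 3, DIO-HFD 4 or DIO-ICR 2, and was 6 without DIO-HFD 1. With all 30 tumors, leaving out DIO-VSG 1 alone gave 3 of 9.

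Adipocyte genes were also higher in DIO-ICR than in DIO-HFD. The 7 adipocyte markers (among them Adipoq and Car3) averaged -1.09 (range -2.52 to 0.01) in the 5 DIO-HFD tumors and 1.06 (0.37 to 2.36) in DIO-ICR, relative to the median tumor, and 1.14 (-0.28 to 3.58) in DIO-CCR. They averaged lower than in DIO-HFD in CON-LFD (-1.845) and in the 4 DIO-VSG tumors (-1.949). The 9 T cell genes averaged -0.118 and -0.268 in those 2 groups, above -0.755 in DIO-HFD. In DIO-CCR the T cell genes averaged 0.024, against 0.624 in DIO-ICR. The adipocyte score did not overlap between DIO-HFD and DIO-ICR, so group and score are partly confounded in a fit with it as a covariate. In that fit 0 of 9 genes passed in DIO-ICR against DIO-HFD in the 27 tumors. The differences of the 5 genes that had passed changed little in the 27 tumors. Cd3e went to 2.25 (adjusted p = 0.0958), Cd8a to 2.40 (adjusted p = 0.205), Cd3g to 1.80, Cd8b1 to 1.46 and Cd3d to 1.24. With the B cell-high tumors included, the same covariate reversed the sign of Zap70 and Cd2 in DIO-ICR against DIO-HFD. Cd3d, Cd8b1 and Cd2 likewise changed sign in DIO-CCR against DIO-HFD, as given in the closing section. None of these reversed differences had passed. Lymph node stroma genes were also separate between DIO-HFD and DIO-ICR. Their 6 genes averaged -0.44 to -0.22 in the 5 DIO-HFD tumors and 0.15 to 0.62 in DIO-ICR. All 6 were higher in DIO-ICR by the fit with a median of 0.23, and 0 of 6 passed, the B cell-attracting chemokine Cxcl13 differing by 2.65 ± 0.73 (adjusted p = 0.0976). Of the B cell genes 0 of 10 passed, and they averaged between -0.22 and 0.17 in each of these tumors. The part of adipocyte and stroma RNA in the T cell gene differences was not tested beyond the covariate fit.

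Against CON-LFD, DIO-ICR was higher in 2 of 9 genes in the 27 tumors, Cd3d and Cd4 as given above, where 2.64% of all genes were called. With all tumors 0 of 9 passed (1.57% of genes called), and 2 had an unadjusted p under 0.05, against 14.1% of genes. Neither group holds a B cell-high tumor, so each difference was the same in both fits. Its standard error, which rests on the spread in all groups, was smaller in the 27 tumors (Cd3d 0.31 against 0.43, Cd4 0.21 against 0.29). Cd2 was the 1 gene whose groups did not overlap, as for 0.969% of genes. Cd3e was 1.24 ± 0.37 higher (adjusted p = 0.0758), Cd8a 1.06 ± 0.46 (adjusted p = 0.256) and Cd8b1 0.42 ± 0.30 (adjusted p = 0.555). Both calls were easily lost. Of the 12 fits that left out 1 tumor of either group, Cd3d lost its call in 9 (adjusted p up to 0.106) and Cd4 in 7 (up to 0.105), and 0 of 9 genes passed without CON-LFD 2, CON-LFD 3, CON-LFD 4, DIO-ICR 1, DIO-ICR 2 or DIO-ICR 5. With the adipocyte score as a covariate 0 of 9 passed. That score did not overlap between these groups either (at most 0.11 in CON-LFD, at least 0.37 in DIO-ICR), so it is partly confounded with group. Macrophage genes moved with this comparison, 5 of 7 being higher in DIO-ICR (Adgre1, Csf1r, C1qa, C1qb and C1qc, with a median of 1.02 over the 7) in both fits. Their mean relative to the median tumor ran from -1.25 to -0.09 in CON-LFD and from -0.10 to 0.73 in DIO-ICR. Of the 6 lymph node stroma genes Cxcl13 also rose over CON-LFD in the 27 tumors, by 2.58 ± 0.70 (adjusted p = 0.0436). The part of these cells in the Cd3d and Cd4 differences was not tested.

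Of the remaining 5 comparisons none called a member. Against DIO-VSG in the 27 tumors, DIO-ICR was higher by 1.45 ± 0.31 in Cd2, 1.46 ± 0.42 in Cd3e and 1.29 ± 0.35 in Cd3d, with 0 of 9 passing (lowest adjusted p = 0.0613, 6 unadjusted, 0.0769% of genes), and Cd3d, Cd3e, Zap70 and Cd2 did not overlap, as for 1.15% of genes. With 30 tumors that comparison also gave 0 of 9 (0 unadjusted, 0.0308%). DIO-CCR against CON-LFD gave 0 of 9 (1 unadjusted) in both fits, with 0.415% and 0.81% of genes called, and Cd4 had the lowest p in the 27 tumors. DIO-CCR against DIO-VSG gave 0 of 9 with 0.0513% of genes (1 unadjusted, lower) and 0.0359% (2 unadjusted, higher), its largest difference in the 27 tumors being Cd2 at 1.07 ± 0.31. DIO-VSG against CON-LFD gave 0 of 9 (0 unadjusted) with 0.0256% and 0% of genes called. DIO-CCR against DIO-ICR gave 0 of 9 and 0% of genes in both fits, but all 9 genes were lower in DIO-CCR, by a median of 0.71, and in the 27 tumors 4 had an unadjusted p under 0.05. The shares of all genes past that unadjusted threshold, with 30 and with 27 tumors, were 8.37% and 8.51% for DIO-ICR against DIO-VSG. They were 11.4% and 12.6% for DIO-CCR against CON-LFD, and 9.35% and 8.44% for DIO-CCR against DIO-VSG. For DIO-VSG against CON-LFD they were 9.42% and 6.11%, and for DIO-CCR against DIO-ICR 4.76% and 5.49%. The F-test over the 5 groups called 0 of 9 with all tumors, where 1.64% of genes were called. Its unadjusted p was under 0.05 for 5 of the 9, against 15.3% of genes. Without the B cell-high tumors the F-test called 3 of 9, Cd3e (adjusted p = 0.00986), Cd2 (0.0324) and Cd8a (0.0394), against 1.81% of genes.

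The genes varied together across tumors far more with the B cell-high tumors than without. Pearson's r of deviations from the group means ran from 0.46 to 0.87 over the 36 pairs of genes in 30 tumors (median 0.74) and from -0.13 to 0.73 in the 27 (median 0.33). Cd3e, Cd3g and Cd8b1 followed the mean of the other genes most closely in the 27 tumors (r = 0.78, 0.78 and 0.74), and Zap70 and Cd4 least (0.31 and 0.14). The correlation with the B cell score was 0.63 to 0.86 in the 30 tumors and -0.26 to 0.10 in the 27. All points share 1 array per tumor, and the values are descriptions.

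**Figure D3:**
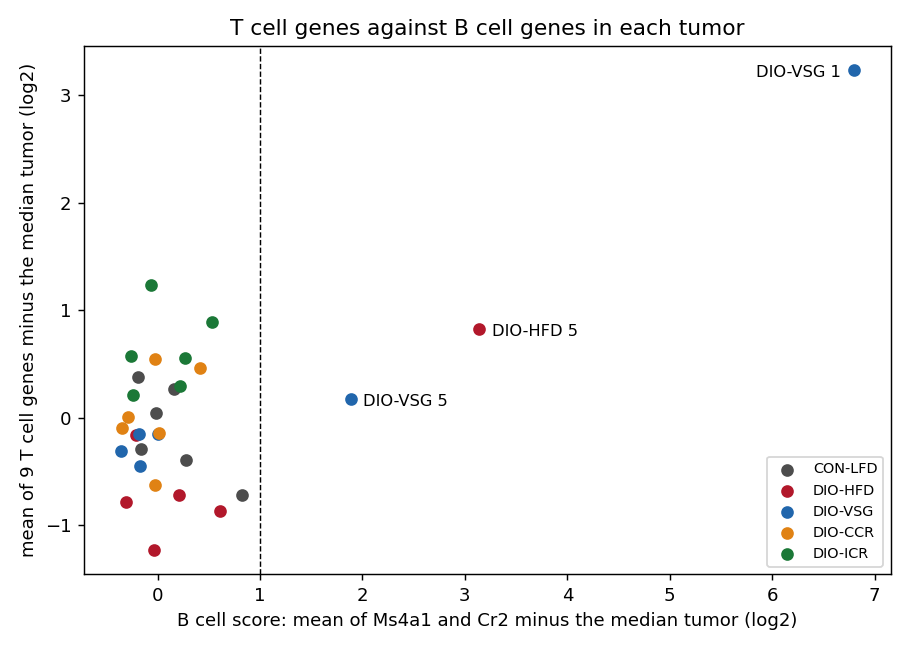
Mean of the 9 T cell genes (vertical axis) against the B cell score, the mean of Ms4a1 and Cr2 (horizontal axis), each relative to the median tumor on the log2 scale, with 1 point per tumor coloured by group. The dashed line marks a score of 1, and DIO-VSG 1, DIO-HFD 5 and DIO-VSG 5 lie to its right, with DIO-VSG 1 the highest of all tumors on both axes.

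Over the 27 tumors the genes most like the mean of the 9 in their deviations from the group means were Klrc1 (r = 0.83), AW112010 (0.83), Lag3 (0.81), Prkch (0.78), Evl (0.78), Klrc3 (0.78), Kcna3 (0.78) and Pik3r6 (0.78). Klrc1 and Klrc3 encode NKG2 receptors of natural killer and activated CD8 T cells, Lag3 an inhibitory receptor of T cells, Prkch a protein kinase C, and Kcna3 a potassium channel of T cells. With all 30 tumors the nearest were Gm4759 (0.91), Gimap3 (0.91), Hvcn1 (0.90), Rasal3 (0.90), Slamf6 (0.90), Inpp4b (0.90), Arhgap15 (0.90) and Prkch (0.90), among which Gimap3 is a GTPase of lymphocytes and Hvcn1 a proton channel of B cells and phagocytes.

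Further T cell receptor signalling genes were examined in a list of 34, of which 28 were measured. In DIO-ICR against DIO-HFD without the B cell-high tumors 6 of 28 rose and 0 fell, namely Lcp2 (the adaptor SLP-76), Rasgrp1 (a Ras activator), Icos (a costimulatory receptor), Ptpn22 (a phosphatase that restrains LCK), Themis and Tespa1, with a median of 0.71. Lcp2 was 1.01 ± 0.23 higher and Ptpn22 1.44 ± 0.32 (adjusted p = 0.0438 and 0.0331), and the leukocyte phosphatase Ptprc (CD45) 0.87 ± 0.23 (adjusted p = 0.079). With all 30 tumors 1 of 28 passed, Lcp2. Of all genes 0.559% were called in the 27 tumors and 0.461% in the 30. In DIO-CCR, DIO-VSG and CON-LFD against DIO-HFD 0 of 28 passed in the 27 tumors, with 11, 4 and 3 past an unadjusted p under 0.05. Of all genes 12%, 7.11% and 11.6% were past it in these comparisons.

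Some natural killer genes rose in DIO-ICR, and of the cytotoxic genes 1 did. Of 7 natural killer genes 4 rose over DIO-HFD in the 27 tumors (Ncr1, Klrk1, Klrc1 and Il2rb), with a median of 1.43. Of all genes 0.559% were called in that comparison, and 0.231% in DIO-CCR against DIO-HFD. Klrk1, the activating receptor NKG2D, rose by 1.43 ± 0.28 (adjusted p = 0.0162) and Ncr1, which marks natural killer cells, by 1.57 ± 0.37 (adjusted p = 0.048). Of 9 cytotoxic genes 1 rose, the pore-forming perforin Prf1, by 1.57 ± 0.30 (adjusted p = 0.0142), and Gzmb differed by 1.58 ± 0.41 (adjusted p = 0.0703). In DIO-CCR, where no T cell gene of the 9 passed, Prf1 and Ncr1 also rose over DIO-HFD in the 27 tumors, by 1.48 ± 0.30 (adjusted p = 0.0395) and 1.68 ± 0.37 (adjusted p = 0.0485). With all 30 tumors Gzmb passed in both DIO-ICR and DIO-CCR (limma, adjusted p = 0.0432 each). Prf1 then passed in neither (0.0517 and 0.0816). Of the natural killer genes Ncr1, Klrk1 and Il2rb passed in DIO-ICR with all 30 tumors, and Ncr1 and Klrk1 in DIO-CCR. The shares of all genes called were then 0.461% and 0.354%. Of 8 transcription factor and homing genes 1 rose in DIO-ICR in the 27 tumors, Eomes, by 1.24 ± 0.23 (adjusted p = 0.0124). With all 30 tumors Eomes did not pass (limma, adjusted p = 0.26). In the 27 tumors S1pr1, which lets T cells leave lymph nodes, differed by -0.36 ± 0.26 (adjusted p = 0.692) and Il7r by 0.85 ± 0.35 (adjusted p = 0.352). Of 7 macrophage genes 0 passed against DIO-HFD, with a median of 0.24. The part of natural killer cells in the levels of Cd247, Zap70 and Cd2 was not tested.

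**Figure D4:**
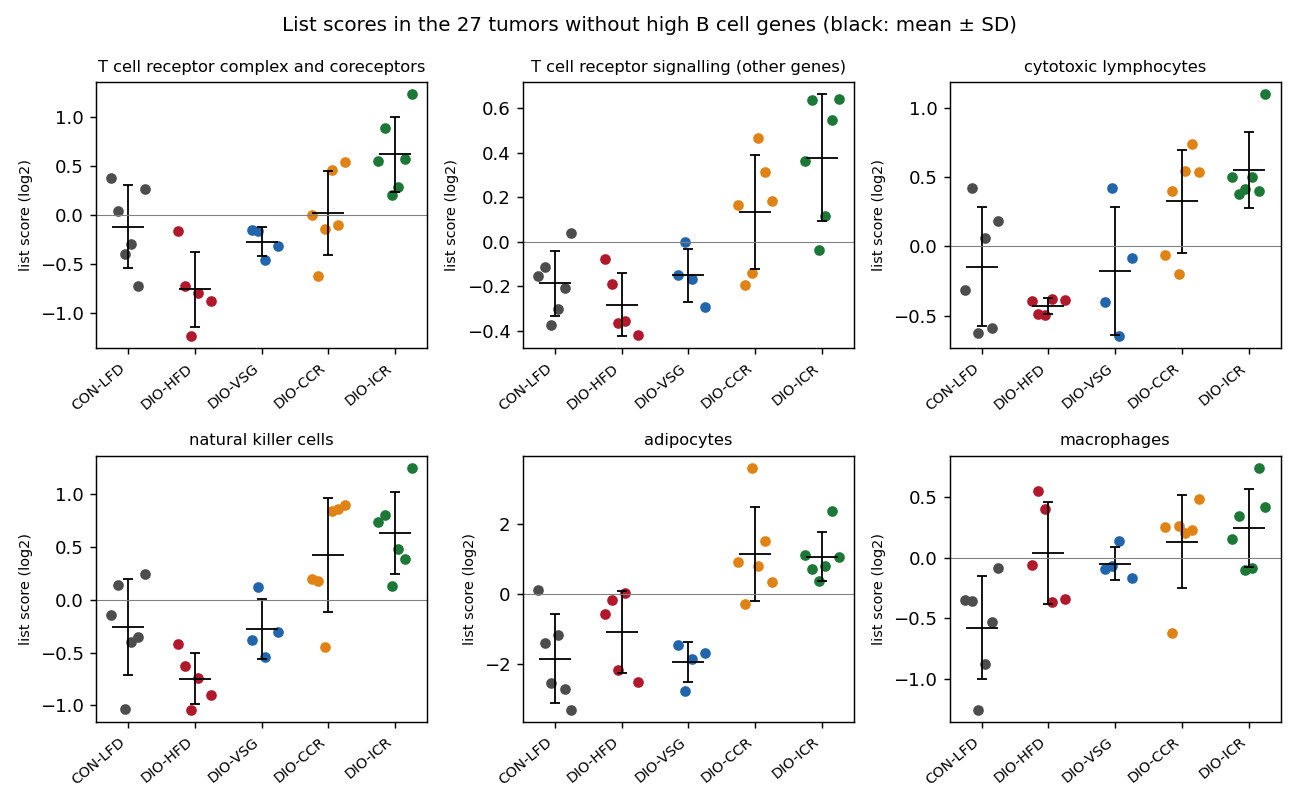
Mean of the measured genes of 6 lists relative to the median tumor on the log2 scale (vertical axes) in the 27 tumors that were not B cell-high, by group (horizontal axes), with points for tumors and black bars for the mean and SD. The 5 DIO-HFD tumors are low and the 6 DIO-ICR tumors high for the T cell receptor genes (-0.76 and 0.62 on average), the natural killer genes (-0.75 and 0.63) and the adipocyte genes (-1.09 and 1.06). For the adipocyte genes CON-LFD and DIO-VSG are lower still (-1.845 and -1.949).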

How the data were processed

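Tumor RNA was isolated with TRIzol and a column kit, labelled and hybridized to Mouse Clariom S arrays, 1 array per tumor. The authors ran SST-RMA (background correction and scaling between arrays) in the Transcriptome Analysis Console and deposited log2 levels, which were not normalized again here. Arrays have no read depth, and 6 arrays per group limit the precision. The table held 22206 probe sets, of which 19572 had 1 gene symbol, 0 several and 2634 none. The brightest probe set was kept for 55 symbols with several, leaving 19505 genes. No source used here states the array's genome build.

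Group means were fitted with limma 3.58.1 in R 4.3.3 over all 30 arrays, and again over 27, with 25 and 22 residual degrees of freedom and moderated standard errors. All 10 comparisons and an F-test were made, p-values were adjusted over all genes (Benjamini-Hochberg), and a gene passed at an adjusted p under 0.05. A difference is given ± its standard error. The fit was tested on simulated data. A B cell score was the mean of Ms4a1 and Cr2, each minus its median array, and tumors above 1 were called B cell-high. List scores were computed in the same way. Other genes named are up to 3 of each list by the F-test, with those that passed, and the 8 most like the mean of the members. The members, lists and tests were chosen with earlier results of these data known. The alternatives are given in the closing section; those with a muscle or adipocyte score, and the repeats in 27 tumors, were chosen after seeing the data.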

Additional observations from a re-analysis of the deposited data

Results flagged for a closer look

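A single tumor stood far from the rest of its group in 9 of 45 sets of 6 values (9 genes in 5 groups), where the gap to the next tumor exceeded 0.625 of the range. Chance flags about 1 in 20 such sets, but the 9 genes of a group share the same 6 arrays, so the sets are not independent. In 8 of the 9 the tumor was DIO-VSG 1. Cd3e read 12.27 there against 8.36 in the next DIO-VSG tumor (gap 0.813 of the range), Cd8a 10.95 against 7.54 (0.812) and Cd8b1 10.74 against 7.21 (0.767). Cd2 read 10.49 against 6.03 (0.794), Zap70 6.47 against 3.96 (0.797), Cd4 10.55 against 8.94 (0.691), Cd247 8.37 against 6.63 (0.685) and Cd3d 8.30 against 6.11 (0.680). Cd3g, at 10.63 in that tumor, was not flagged. The other was Cd247 in DIO-HFD 5, at 7.45 against 6.39 (0.752). Both tumors are B cell-high, with Glycam1, of the lymph node stroma list, at 13.81 and 10.03 against 2.76 to 4.29 in the 27 other tumors.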

How the results depend on the processing

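No paired analysis was possible because the labels give each mouse its own number and no pairing. With all 30 tumors, calls in DIO-ICR against DIO-HFD went from 0 of 9 to 2 with array weights, 1 with only the 2 groups in the fit, and 5 with the B cell score as a covariate, without the B cell-high tumors or without those with a score above 2. In DIO-ICR against CON-LFD they went from 0 to 1 with the 2 groups and to 2 under each of those B cell settings, and in the F-test from 0 to 6, 3 and 4. Leaving out 1 array gave 0 to 3 and 0 to 2 in the 2 comparisons, each highest without DIO-VSG 1.

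In the 27 tumors the adipocyte score as a covariate gave 0 in DIO-ICR against DIO-HFD, against CON-LFD and in the F-test (from 5, 2 and 3). The score of DIO-ICR did not overlap that of DIO-HFD or CON-LFD, so score and group are partly confounded. Cd3d alone lost its call in DIO-ICR against DIO-HFD, so that 4 of 9 passed, after quantile normalization or median centring, with all probe sets, the 2 groups only or the B cell covariate, or without the muscle tumors (adjusted p from 0.0532 to 0.11). DIO-ICR against CON-LFD gave 0 after quantile normalization and 1 after median centring, with the 2 groups only, or without tumors with a muscle score above 1. DIO-ICR against DIO-VSG gave 1 with trend and robust empirical Bayes, array weights or the 2 groups, the F-test 7 and 6 with trend and with weights, and DIO-CCR against CON-LFD 1 with weights. Leaving out 1 array gave 1 to 6 calls in DIO-ICR against DIO-HFD (6 without DIO-HFD 1 or DIO-CCR 2), 0 to 3 against CON-LFD (0 without CON-LFD 2, 3 or 4 or DIO-ICR 1, 2 or 5), 0 to 1 against DIO-VSG (1 without DIO-CCR 2 or DIO-CCR 3), in CON-LFD against DIO-HFD (1 without CON-LFD 5) and in DIO-CCR against CON-LFD (1 without DIO-CCR 2), and 1 to 6 in the F-test (1 without DIO-HFD 4, DIO-ICR 2 or DIO-ICR 6, 5 without CON-LFD 1, CON-LFD 6, DIO-HFD 1, DIO-VSG 3 or DIO-CCR 6, 6 without DIO-CCR 2). The causes were not tested.

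Differences that changed sign had not passed, and under the alternative their adjusted p was 0.705 or more. Of CON-LFD against DIO-HFD, Cd3d (-0.02 in the 30 tumors) became 0.006 with quantile normalization, 0.012 with median centring, 0.145 with the B cell covariate, 0.099 without the muscle tumors, 0.305 with the adipocyte covariate and 0.184 without B cell-high tumors by either score, and ran from -0.32 to 0.184 with 1 array left out. Zap70 (-0.10) became 0.062, 0.093 and 0.284 with the B cell covariate, without B cell-high tumors by either score and with the adipocyte covariate, with a left-out range of -0.257 to 0.093. Cd2 (-0.07) became 0.212, 0.267 and 0.466 in the same order, 0.023 without the muscle tumors, and ran from -0.319 to 0.267, and Cd4 became 0.064 with the adipocyte covariate. Of DIO-VSG against DIO-HFD, Cd247 (0.14) became -0.075 with array weights, -0.093 with the B cell covariate, -0.045 without the B cell-high tumors and -0.022 without those above 2 (left-out range -0.222 to 0.335), and Cd2 (0.24) -0.329, -0.277, -0.327 and -0.274 (-0.611 to 0.572). Zap70 there ran from -0.089 to 0.598. Of DIO-CCR against DIO-HFD, Zap70 (-0.03) became 0.21 with the B cell covariate and 0.165 without B cell-high tumors by either score (left-out range -0.175 to 0.165), and with the adipocyte covariate Cd3d (0.38) became -0.205, Cd8b1 (0.48) -0.313 and Cd2 (0.40) -0.577. Of DIO-ICR against DIO-HFD, Cd247 (-0.11) became 0.035 with the B cell covariate and 0.087 without B cell-high tumors by either score (-0.222 to 0.087), Zap70 (0.45) and Cd2 (0.78) -0.225 and -0.157 with the adipocyte covariate, and Cd247 in the 27 tumors -0.056 with that covariate (left-out range -0.022 to 0.228). The CD3 and CD8 differences of DIO-ICR from DIO-HFD kept their direction under every alternative run.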
